A study of Mus musculus with 10 samples.

Results

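The 10 heat shock genes described here, in mouse lungs exposed to cigarette smoke or to room air, are Hspa1a, Hspa1b, Hspa8, Hsp90aa1, Hsph1, Hspb1, Hspd1, Hspe1, Dnajb1 and Hsf1. Every array probe whose file name, or whose current symbol through its accession, is one of these 10 genes was taken, which gave 18 of the 41174 probes and 10 of the 27671 genes on the array. Whole mouse genome arrays of Agilent, 1 per lung, were used for the lung RNA of 5 mice kept in smoke and 5 kept in room air. The mice were BALB/c females, an inbred strain, obtained at 6 to 8 weeks of age. The smoke group breathed, in a whole-body exposure system, smoke of 12 cigarettes for 50 minutes at a time, 2 times daily on 5 days per week, over 8 weeks. The room air group went through the same 8 weeks without smoke. The study compared the expression changes that smoke brings in the lungs of mice and of humans, and only the mouse arrays were analysed here.

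Heat shock proteins are molecular chaperones, which bind unfolded proteins and help them to fold, to be refolded or to be handed on for degradation. HSP70 proteins work with J-domain partners that deliver their clients and with exchange factors that release ADP, HSP90 works with its own set of co-chaperones, small heat shock proteins hold unfolded proteins in solution, and HSP60 with HSP10 forms a folding chamber in mitochondria. The transcription factor HSF1 raises many of these genes when unfolded proteins accumulate, for example on heating or oxidative damage, while other members are made at a steady level in unstressed cells.

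The labels name a single dye, but each scanner file holds a red and a green channel. Ddx3y, a Y chromosome gene, gave 9.92 ± 0.43 log2 units of processed green signal against 2.97 ± 1.15 of red (means and SD of 10 arrays), and the surfactant gene Sftpc was brighter in red by 6.39 units. Red was therefore read as the RNA of these female lungs and green as a reference RNA, whose source is not given in the sources used here. Each value below is a log2 ratio of red over green, so a positive value means more signal in lung than in the reference, and a difference is smoke minus room air. It rests on the assignment of scanner files to samples, because every one of the 286449 values in the authors' processed table equals, within 0.0001, that of the same-numbered array of the other group. With the scanner assignment, 7 of 8 macrophage markers were higher in smoke and 6 passed the test described below, which 8.23% of all genes did. In red, spots well above background made up 67.8 to 76.7% with room air and 64.9 to 77.5% with smoke. Each of the 5 slides carried a smoke lung in its first position and a room air lung in its second, so position and exposure cannot be told apart, and 5 lungs per group limit the precision.

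The probes do not separate all members. Of the 4 probes that the files name Hspa1a, 2 list the accessions of both Hspa1a and Hspa1b, neighbouring genes on chromosome 17 that encode nearly the same inducible HSP70, and no probe belongs to Hspa1b alone. The 2 shared probes are 60 bases long and lie, on the mm7 build of the array design and on the minus strand, at chr17:33067263-33067322 (A_52_P52803) and chr17:33068671-33068730 (A_52_P304902). The 2 probes assigned to Hspa1a alone overlap by 30 bases, printed in capitals, so they are not independent readings. They are shown because the first 2 are the bases that Hspa1a and Hspa1b cannot be told apart by, and the last is the stretch common to the Hspa1a values.
A_52_P52803: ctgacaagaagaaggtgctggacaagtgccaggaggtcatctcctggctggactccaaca
A_52_P304902: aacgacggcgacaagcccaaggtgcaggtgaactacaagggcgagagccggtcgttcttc
Overlap of the Hspa1a probes: AGGGAAACTAAACTGTCTTTCAGTTACTTT

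Several members carry heat shock elements, inverted repeats of GAA, just before their start, and the windows are shown because HSF1 binds such repeats. RefSeq on GRCm38.p6 gave 10 windows of 250 bases upstream of the start for 7 of the 10 members, with none matched for Hspa8, Hsp90aa1 and Hsf1. GAANNTTC or TTCNNGAA, each of which reads the same on both strands, occurs in 7 of the 10 windows and in 6 of the 7 genes, against 12.8% of the 32851 windows of all genes. The longer form, either motif followed after 2 bases by a further GAA or TTC in the opposite orientation, on either strand, occurs in 0.466% of all windows and, among the members, in those of Hspe1 and of 1 of the 2 Hspd1 starts. These 2 genes are transcribed away from each other, so the windows share most of their bases on opposite strands, and each holds 3 overlapping copies of the short motifs and 2 of the long form. Hspb1 has 2 short matches, the first 117 bases before the start, and Hspa1a and Hspa1b have 1 each at 104 bases. Hsph1 has 1, the same match in both of its overlapping windows, and neither window of Dnajb1 has any. The Hspa1a and Hspa1b windows differ at 3 of 250 bases (98.8% identical). As these windows, those of Hsph1 and the matching ones of Hspd1 and Hspe1 repeat largely the same bases, the 7 windows with a match are not independent. Capitals mark the matches in the windows of Hspa1a (chr17:34972157-34972406, minus strand), Hspa1b (chr17:34959239-34959488, minus), Hspb1 (chr5:135887669-135887918, plus), Hspe1 (chr1:55087898-55088147, plus) and the first Hsph1 start (chr5:149636316-149636565, minus). A match describes the letters only, and binding of the factor was not measured.
Hspa1a: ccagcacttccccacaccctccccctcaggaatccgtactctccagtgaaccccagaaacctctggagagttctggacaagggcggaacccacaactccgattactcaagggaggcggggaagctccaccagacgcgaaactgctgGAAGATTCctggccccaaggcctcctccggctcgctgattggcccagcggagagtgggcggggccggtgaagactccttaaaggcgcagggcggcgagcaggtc
Hspa1b: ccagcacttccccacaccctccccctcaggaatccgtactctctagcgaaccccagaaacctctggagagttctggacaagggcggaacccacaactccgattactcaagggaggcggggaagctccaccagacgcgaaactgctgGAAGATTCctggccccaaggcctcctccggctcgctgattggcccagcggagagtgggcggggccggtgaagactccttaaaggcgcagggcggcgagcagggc
Hspb1: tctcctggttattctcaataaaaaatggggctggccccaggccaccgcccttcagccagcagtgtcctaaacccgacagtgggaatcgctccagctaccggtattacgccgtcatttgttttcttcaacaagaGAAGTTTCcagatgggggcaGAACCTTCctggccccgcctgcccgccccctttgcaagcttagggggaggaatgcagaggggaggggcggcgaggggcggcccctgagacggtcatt
Hspe1: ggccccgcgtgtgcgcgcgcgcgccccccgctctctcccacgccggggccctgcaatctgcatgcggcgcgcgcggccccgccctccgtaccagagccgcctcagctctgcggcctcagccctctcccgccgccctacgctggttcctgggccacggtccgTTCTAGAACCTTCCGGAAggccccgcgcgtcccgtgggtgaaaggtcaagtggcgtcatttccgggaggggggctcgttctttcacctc
Hsph1: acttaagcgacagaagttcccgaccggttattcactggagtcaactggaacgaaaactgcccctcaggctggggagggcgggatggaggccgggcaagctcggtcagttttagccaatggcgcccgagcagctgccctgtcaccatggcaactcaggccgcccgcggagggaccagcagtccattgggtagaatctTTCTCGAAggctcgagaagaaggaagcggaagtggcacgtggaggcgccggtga

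Of the 18 probes of the heat shock genes, 1 passed the threshold of limma, an adjusted p under 0.05 over all probes, and it was lower in smoke: the brighter probe of Hspb1. Over the whole array 7.06% of the 41173 tested probes passed, 4.35% higher and 2.7% lower, so 1 of 18 is close to the background. With the slide fitted as a block, 2 of the 18 passed, both lower, Hspb1 and 1 probe of Dnajb1, against 12.2% of all probes (6.78% higher and 5.41% lower). The groups overlapped at all 18 member probes, whereas they did not overlap at 6.89% of all probes (2.8% with smoke lower). At an unadjusted p under 0.05 there were 5 of the 18, against 18.2% of all probes.

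The sizes were small, with no member probe past a fold change of 2 in either direction. At 13 probes the value was lower in smoke and at 5 higher, and 95% intervals of the differences ran from -0.83 at the lowest to 0.62 at the highest. Taking 1 probe per gene, the brightest in red, and the shared Hspa1a/Hspa1b probe as a unit of its own, 7 of 10 units were lower and 3 higher, with a median log2 difference of -0.19 against -0.0032 over all probes. Hspa1a and the shared unit were both lower and correlated with r = 0.970 within groups, so they are not independent parts of that split. That split depends on the scale: it was 6 lower to 4 higher with the red channel alone after quantile normalization, 5 to 5 with red scaled to the 75th percentile, and 6 to 4 with the ratio of the scanner software. It was 3 to 7 in the authors' processed table. That table has exchanged groups and also holds means of both channels, so its split cannot be put down to the scale alone.

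**Figure D1:**
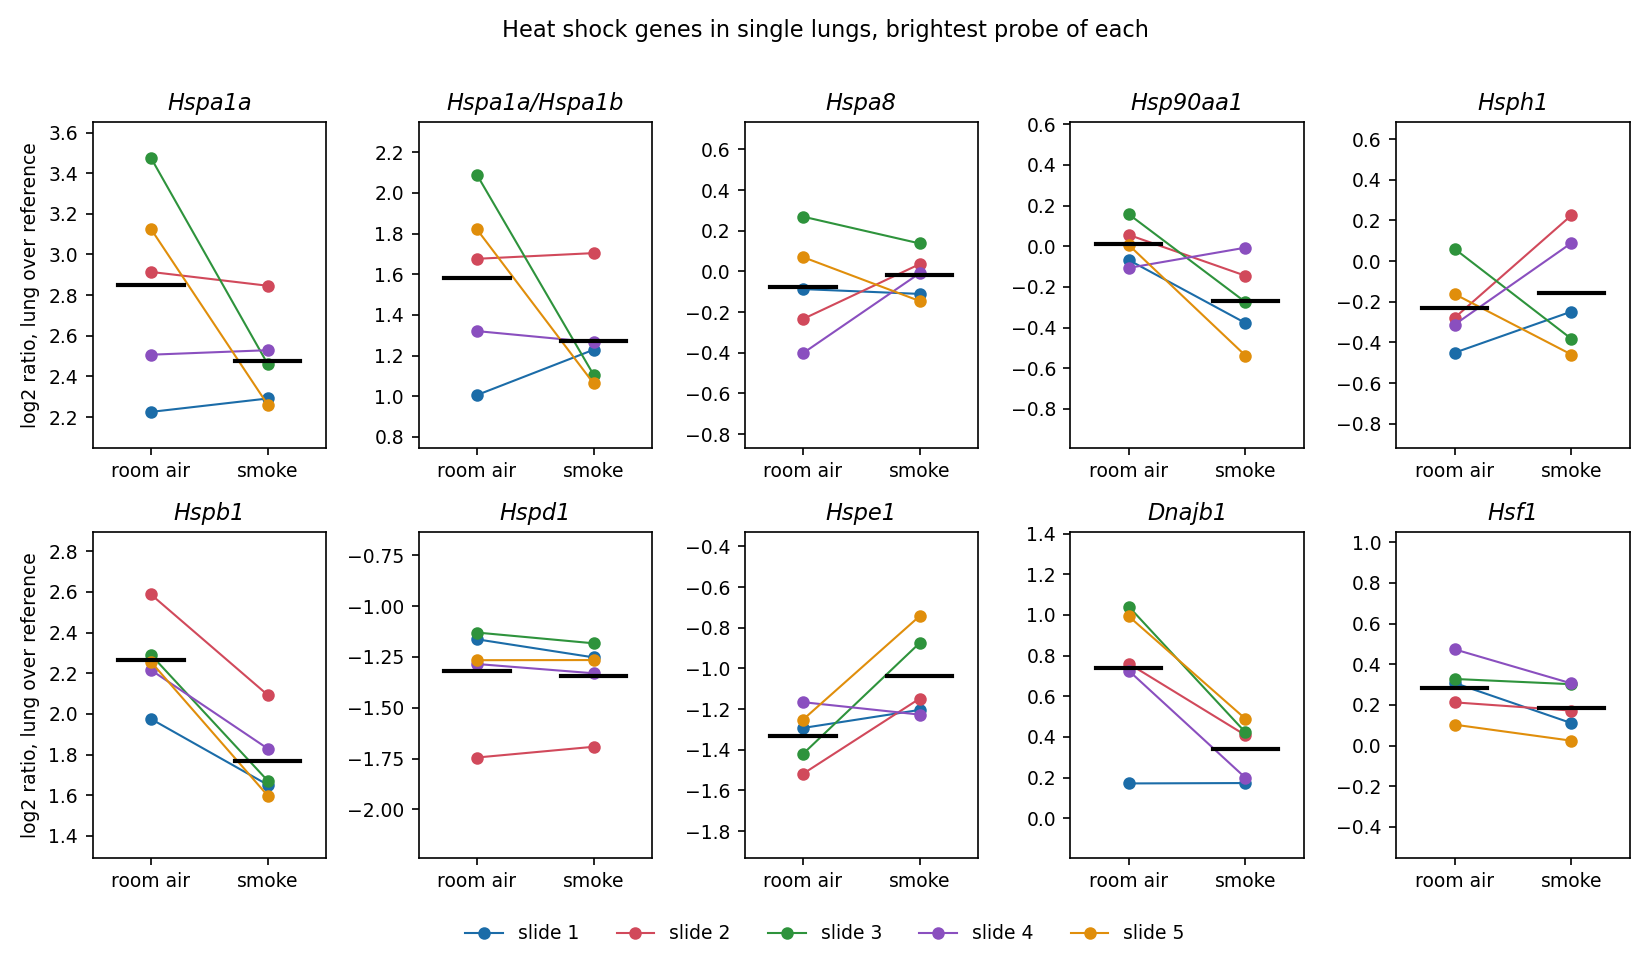
The log2 ratio of lung over reference is plotted for each of the 10 lungs at the brightest probe of each gene or shared unit, with a line joining the 2 arrays of a slide and a black bar at each group mean. Every panel spans the same range of log2 units, and the groups overlap in all 10 panels. Hspb1 was the only member whose difference passed the threshold without the slide as a block, and Dnajb1 passed as well with it.

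Hspa1a, the main heat-inducible HSP70, had log2 ratios of 2.23, 2.91, 3.47, 2.51 and 3.13 in room air lungs 1 to 5. In smoke lungs 1 to 5 it had 2.29, 2.85, 2.46, 2.53 and 2.26. Room air lungs 3 and 5 were the highest of all 10, room air lung 1 was the lowest, and the other 7 lay between, so the groups overlapped. The group means were 2.85 ± 0.49 and 2.48 ± 0.23 (SD, n = 5 each), a difference of -0.37 with a 95% interval of -0.83 to 0.09 (limma, adjusted p = 0.417). The overlapping second Hspa1a probe gave -0.41 (adjusted p = 0.27 in limma) and was lower on 5 of 5 slides. The probes shared by Hspa1a and Hspa1b gave -0.31 and -0.17 (adjusted p = 0.474 and 0.77 in limma). As the lung is a mixture of cells, fewer cells of a type and less RNA per cell cannot be told apart here or in any result below.

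Dnajb1, the J-domain protein that brings clients to the inducible HSP70 and is itself heat-inducible, had, at its brighter probe, its lowest and highest room air lungs in common with Hspa1a, but smoke lung 5, the lowest of its group for Hspa1a, was the highest for Dnajb1. Its room air values were 0.17, 0.76, 1.04, 0.73 and 0.99, and its smoke values 0.17, 0.41, 0.42, 0.20 and 0.49. Room air lung 1 stood level with the lowest smoke lung, and the other 4 room air lungs lay above all 5 smoke lungs. The difference was -0.40, with a 95% interval of -0.72 to -0.08, and did not pass the threshold in limma (adjusted p = 0.152). It passed with the slide as a block (limma, adjusted p = 0.0216, lower on 4 of 5 slides), and without room air lung 1 (-0.54, adjusted p = 0.00319); over all 23 alternatives its adjusted p ran from 0.00319 to 1.0 and 3 passed. The second Dnajb1 probe gave -0.10 (limma, adjusted p = 0.834), so the probes of the gene differ in size.

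Hsp90aa1, the stress-inducible cytosolic HSP90, had values of -0.07, 0.06, 0.16, -0.11 and 0.01 with room air. With smoke the values were -0.38, -0.15, -0.28, -0.01 and -0.54. Smoke lung 4 lay among the room air lungs, and the other 4 smoke lungs lay below all 5 of them. The difference of -0.28 had a 95% interval of -0.48 to -0.07 and did not pass in limma (adjusted p = 0.118; 0.0849 with the block), though it did without smoke lung 4 (-0.34, limma, adjusted p = 0.0415; 0.0415 to 1.0 over the 23 alternatives).

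Hsph1, an HSP110 protein that exchanges nucleotides on HSP70 and which the files name Hsp110, had -0.45, -0.28, 0.06, -0.31 and -0.16 with room air and -0.25, 0.23, -0.38, 0.09 and -0.46 with smoke. Its highest and its lowest lung were both in the smoke group. The difference was 0.07, with a 95% interval of -0.23 to 0.38 (limma, adjusted p = 0.883), and -0.02 without smoke lung 2. Hspa8, the HSP70 that cells make without stress, differed by 0.06 and 0.11 at its 2 probes (adjusted p = 0.887 and 0.886 in limma), but with opposite sign in red alone after quantile normalization at the brighter one (-0.02). The files place both Hspa8 probes on chromosome 5 of mm7, at chr5:5787852-5787911 and chr5:5788853-5788912, whereas the gene lies on chromosome 9 in RefSeq. The probes were not aligned here, so their values may not stand for Hspa8 alone.

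The differences varied between slides. The median over the 10 units was -0.44 on slide 3 and -0.40 on slide 5, with 9 and 8 of the 10 units lower in smoke. On slides 1, 2 and 4 the same medians were -0.01, -0.0062 and -0.05, while over all probes every slide's median lay between -0.0052 and 0.01. For Hspa1a the differences were 0.07, -0.07, -1.01, 0.02 and -0.86 on slides 1 to 5, and for the shared probe 0.22, 0.03, -0.98, -0.05 and -0.76. Hspa1a and the shared probe are not independent, and both enter the medians above. Slides 3 and 5 thus carried nearly the whole Hspa1a difference. On slide 3 the room air lung was the highest of all 10 lungs (3.47). On slide 5 the room air lung was high (3.13) and the smoke lung was the lowest of its group (2.26). For Hsph1 the differences were 0.20, 0.50, -0.44, 0.40 and -0.30, again negative on slides 3 and 5 and positive on the other 3. Slides 2 and 5 were scanned on the same day and slide 3 on another. What sets slides 3 and 5 apart was not tested.

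**Figure D2:**
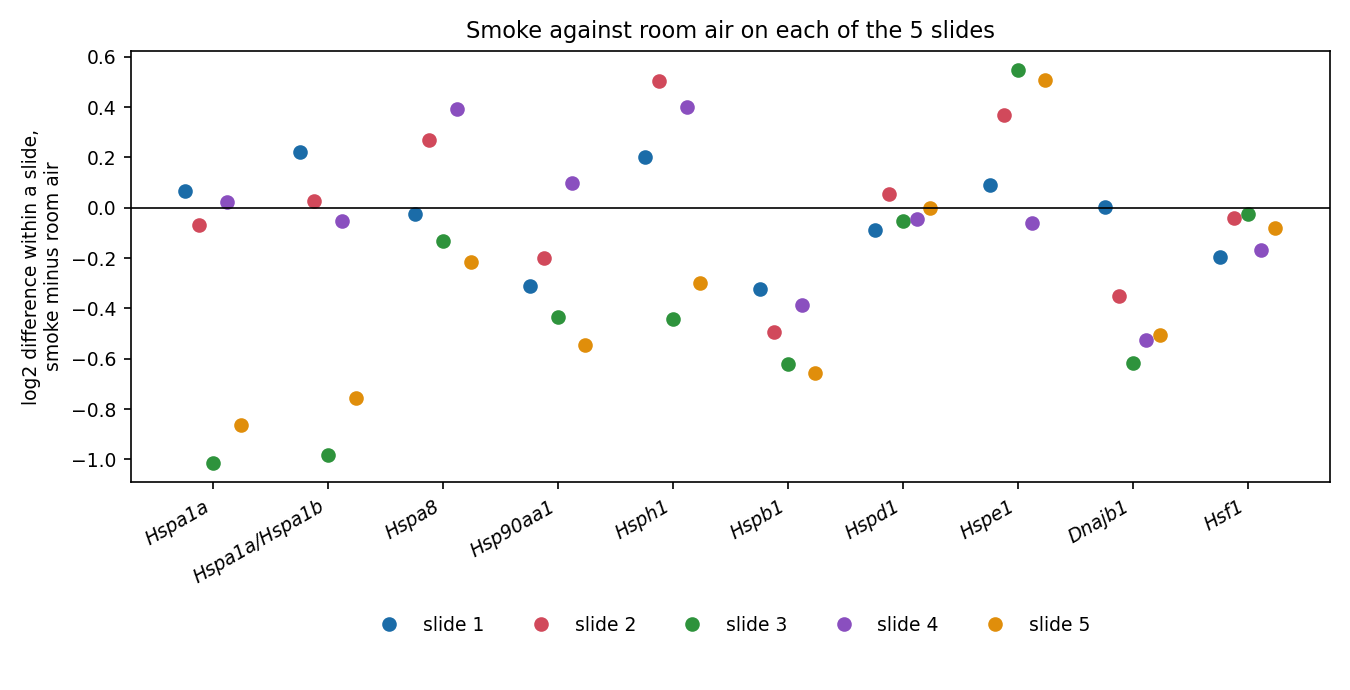
Each point is the log2 difference, smoke minus room air, between the 2 arrays of a slide at the brightest probe of a gene, with slides in different colours. Hspb1 and Hsf1 lie below 0 on all 5 slides, while Hspa1a falls by about a log2 unit on slide 3, less on slide 5, and stays near 0 on slides 1, 2 and 4.

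The spread between lungs differed among the inducible members. The SD was larger with room air for Hspa1a (0.49 against 0.23 with smoke), the shared Hspa1a/Hspa1b probe (0.43 against 0.25) and Dnajb1 (0.35 against 0.14). It was larger with smoke for Hsp90aa1 (0.21 against 0.10) and Hsph1 (0.30 against 0.19). Over the 18 member probes the median SD was 0.25 with room air and 0.18 with smoke, against 0.11 and 0.10 over all probes. These medians are of unlike sets, because 17 of the 18 member probes were well above background in red on 10 arrays. All probes include dim ones, whose ratios the offset of the background correction shrinks, and probes of like brightness were not compared. The SD was larger with room air at 11 of the 18 (61.1%), against 60.2% of all probes. What lies behind the spread of the members was not tested. Room air lung 1, where Hspa1a and Dnajb1 were lowest, also had the highest summed red signal of the 7 measured neutrophil markers (151813, against 21874 to 32714 in the other 4 room air lungs and 34805 to 61029 with smoke), and the part of those cells in its heat shock values was not tested.

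A score of the inducible members, the mean of the z-scored levels of Hspa1a, the shared Hspa1a/Hspa1b probe, Hsph1, Dnajb1 and Hsp90aa1 after subtracting group means, was highest in room air lung 3 (1.33) and lowest in room air lung 1 (-1.43). Smoke lungs ran from -0.73 in lung 5 to 1.00 in lung 2. Within groups the parts of the score correlated unevenly, from r = 0.114 (Hsp90aa1 and Dnajb1) to r = 0.970 (Hspa1a and the shared probe). HSP70 therefore weighs more in the score than the other genes, and the score does not stand for a single shared pattern. Hspb1, which is not in the score, correlated with Hspa1a at r = 0.639. Of 15261 other genes well above background in both channels, those most like the score were Echdc2 (r = 0.984 over 10 lungs), Dhx16 (r = 0.950), a transcript with no symbol in the files (r = 0.929), 2810410L24Rik (r = 0.925) and Pcnx4 (r = 0.914). They head a long ranking over few lungs and are given as a description. Their own differences between smoke and room air did not pass in limma, with adjusted p = 0.320 for Echdc2, 0.717 for Dhx16 and 0.338 for Pcnx4.

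Hspb1, a small heat shock protein that holds unfolded proteins and binds actin filaments, was the member that fell in the fit without the block. Its brighter probe, at chr5:134860337-134860524 on mm7, had log2 ratios of 1.98, 2.59, 2.29, 2.22 and 2.26 in room air lungs 1 to 5 and 1.65, 2.09, 1.67, 1.83 and 1.60 in smoke lungs 1 to 5. Smoke lung 2, the highest of its group, lay above room air lung 1, the lowest of the other, and otherwise every smoke lung lay below every room air lung. The means were 2.26 ± 0.22 and 1.77 ± 0.20 (SD, n = 5 each), a difference of -0.50 ± 0.12 (SE) or 0.709-fold, with limma's adjusted p = 0.0262 and 0.00179 with the slide as a block. Within slides 1 to 5 the differences were -0.32, -0.49, -0.62, -0.39 and -0.66. The reference channel, not normalized between arrays, differed by -0.04 at this probe. Red alone after quantile normalization gave -0.54 (limma, adjusted p = 0.0659). The part of each channel in the difference was not tested.

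That call is close to the threshold, and 6 of the 10 omissions of an array ended it. In limma, the adjusted p of Hspb1 was 0.0509, 0.0613 or 0.0530 without room air lung 2, 3 or 5, and 0.0718, 0.0653 or 0.0733 without smoke lung 1, 3 or 5, and it was 0.00742 or 0.0444 without room air lung 1 or 4 and 0.00994 or 0.0481 without smoke lung 2 or 4, with differences from -0.58 to -0.42 over all 10 omissions. It was 0.0659 in red alone after quantile normalization and 0.173 with ratios scaled between arrays, the mean of both Hspb1 probes gave -0.24 (0.0958), and 10 of 23 alternatives passed, with adjusted p from 0.00179 to 1.0. A second probe that the files name Hspb1 lies on chromosome 13 of mm7, was well above background in red on 1 of 10 arrays, and gave 0.02 (adjusted p = 0.951 in limma).

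Cryab, the alpha-B-crystallin and another small heat shock protein, fell by 0.46 on the log2 scale (0.725-fold; limma, adjusted p = 0.00108). It did not pass with ratios scaled between arrays (-0.34, adjusted p = 0.256 in limma) or red at the 75th percentile (0.0895), with 6.1e-05 to 0.256 over 22 alternatives. Its room air values were 2.77, 2.93, 2.76, 2.92 and 2.98 and its smoke values 2.36, 2.57, 2.34, 2.39 and 2.38. All 5 smoke lungs lay below all 5 room air lungs, and smoke lung 2 stood highest in its group for Cryab as for Hspb1. The other 7 genes of this family besides the members did not pass. With Cryab, 5 of the 8 were lower in smoke, the highest was Cryaa (0.07; 0.28 in red alone after quantile normalization, 0.49 with the scanner ratio and 0.96 with red at the 75th percentile), and the median was -0.06.

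Muscle cells are rich in both proteins. Of 17 muscle markers 16 were lower in smoke and 3 passed, and these 3, Acta2, Tnnt2 and Tnnt3, fell by 0.45, 0.41 and 0.41 (limma, adjusted p = 0.00897, 0.0493 and 0.00148). Over all genes 3.27% were called lower, and 6.27% with the block. Of 5 smooth muscle markers all 5 were lower in smoke and 1 passed (4 with the block), of 8 cardiac markers, which lung holds in the walls of its veins, all 8 were lower and 1 passed (4 with the block), and of 4 skeletal markers 3 were lower and 1 passed (2 with the block). The median differences of these lists were -0.35, -0.40 and -0.39.

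The summed red signal of the smooth muscle markers, led by Acta2, was 56587, 57985, 53372, 55267 and 55356 in room air lungs 1 to 5 and 39947, 42111, 46848, 38172 and 44078 with smoke. The cardiac sum, led by Myl7, was 99068, 82656, 98322, 90522 and 61318 with room air and 54209, 62277, 44611, 44581 and 56899 with smoke. The smooth muscle sums did not overlap between groups, and the cardiac sums overlapped only at room air lung 5 and smoke lung 2. For skeletal muscle, led by Myh4, the sums were 1486 to 2180 and 926 to 1914. Every measured marker of these lists was well above background in red on at least 1 array, and the part of muscle content in the Hspb1 and Cryab values was not tested.

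**Figure D3:**
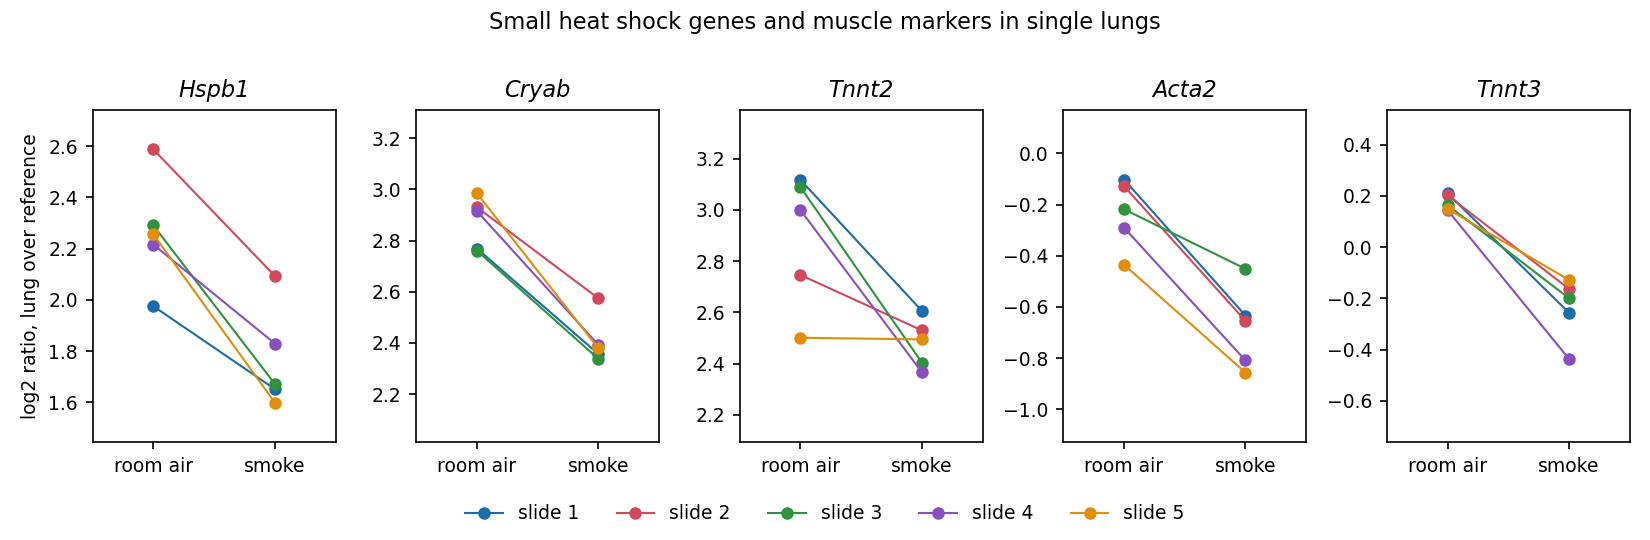
Log2 ratios of lung over reference in single lungs for Hspb1, Cryab and the muscle genes Tnnt2, Acta2 and Tnnt3, with lines joining the 2 arrays of a slide and the same span on each vertical axis. All 5 genes are lower with smoke on all 5 slides; Cryab, Acta2 and Tnnt3 do not overlap between groups, while Hspb1 and Tnnt2 do.

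Neither gene of the mitochondrial pair passed. Hspe1, the HSP10 lid of the folding chamber, had -1.29, -1.52, -1.42, -1.17 and -1.25 with room air and -1.20, -1.15, -0.88, -1.23 and -0.74 with smoke. Smoke lungs 3 and 5 were the highest of the 10, and the other 3 smoke lungs lay within or near the room air range. The difference was 0.29, with a 95% interval of 0.06 to 0.52 (limma, adjusted p = 0.143; 0.089 with the block and 0.0207 to 1.0 over the 23 alternatives, higher on 4 of 5 slides). It was largest on slides 2, 3 and 5, at 0.37, 0.55 and 0.51, and was 0.09 on slide 1 and -0.06 on slide 4.

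Hspd1, the HSP60 chamber itself, had -1.16, -1.74, -1.13, -1.28 and -1.27 with room air and -1.25, -1.69, -1.18, -1.33 and -1.27 with smoke. Both lungs of slide 2 stood below the other 8. The difference was -0.03, with a 95% interval of -0.30 to 0.25 (limma, adjusted p = 0.959), narrowed to -0.13 to 0.07 by the block, and its sign turned in red alone (0.06 after quantile normalization) and with the scanner ratio (0.01). The 2 genes share most of the promoter printed above, and a test of the difference between their responses was not run. The second Hspd1 probe gave -0.05 (limma, adjusted p = 0.97).

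Hsf1, the factor that drives the heat shock response, was measured by 3 probes. They differed by -0.10, -0.15 and -0.08, each lower on 5 of 5 slides, and none passed in limma (adjusted p = 0.603, 0.314 and 0.549; 0.228, 0.0947 and 0.326 with the block; 0.228 to 1.0 over the 23 alternatives for the brightest). The brightest ran from 0.10 to 0.47 with room air and from 0.02 to 0.31 with smoke, and its sign turned in red alone, with 0.0065 after quantile normalization and 0.07 after scaling to the 75th percentile. These are RNA levels, and HSF1 protein activity was not measured.

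**Figure D4:**
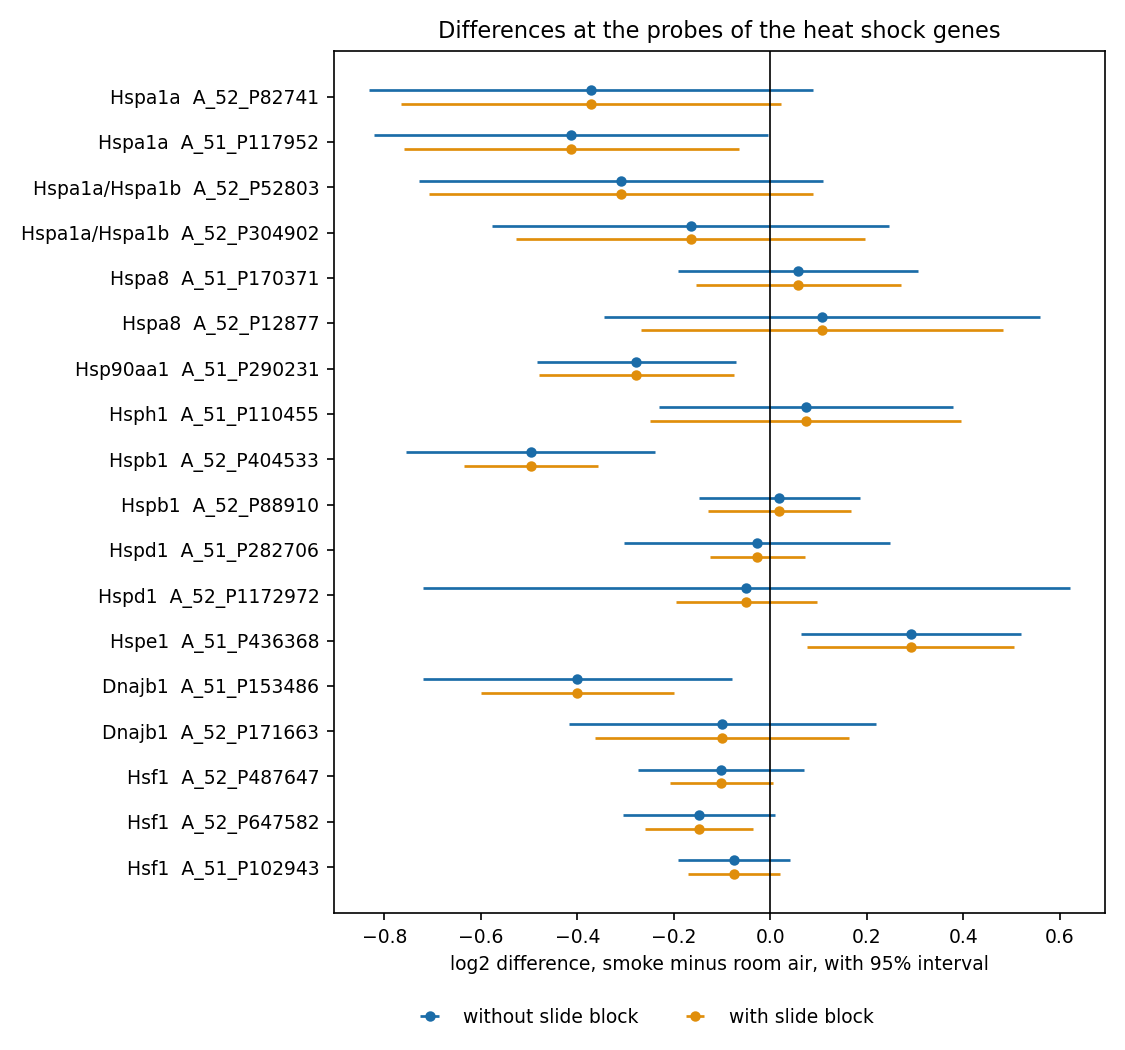
Log2 differences, smoke minus room air, with 95% intervals at the 18 member probes, from the fit without (blue) and with (orange) the slide as a block. Intervals of Hspb1 A_52_P404533, Hsp90aa1, Hspe1, Dnajb1 A_51_P153486 and Hspa1a A_51_P117952 exclude 0 before adjustment in both fits, and the 2 intervals of the second Hspd1 probe differ most in width.

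The wider chaperone system was read from 11 lists holding 132 genes other than the members, of which 131 were measured and Dnajb14 was not. Of the 131, 10 passed in limma, 4 higher and 6 lower (7.63%), against 8.23% of all 27670 genes tested at the brightest probe (4.95% higher and 3.27% lower). With the block 16 passed, 5 higher and 11 lower (12.2%), against 13.8% of all genes (7.52% higher and 6.27% lower). Groups did not overlap at 11 (8.4%, against 7.89% of all genes, 3.27% with smoke lower), and 20.0% of all genes had an unadjusted p under 0.05. The median difference was -0.03, against -0.0042 over all genes, no gene passed a fold change of 2 and 1 passed 1.5. The share of chaperone genes that changed was thus near that of the array.

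The gene past 1.5-fold was Fkbp5, an HSP90 co-chaperone of steroid receptors and a target of glucocorticoids. It had -0.87, -1.34, -1.28, -1.26 and -1.31 with room air and -0.48, -0.92, -0.51, -0.31 and -0.51 with smoke. Room air lung 1 lay just above smoke lung 2, and apart from that pair the groups were separate. Fkbp5 rose by 0.66 (1.58-fold; limma, adjusted p = 0.00511, higher on 5 of 5 slides). It did not pass with the mean of its probes (0.34, adjusted p = 0.164 in limma), median centring (0.112) or red at the 75th percentile (0.0898), and its adjusted p ran from 0.000763 to 0.165 over 22 alternatives. The other 17 HSP90 co-chaperones did not pass (2 were lower with the block), with a list median of 0.0029 and the largest fall at Unc45b, a myosin chaperone of muscle (-0.35, adjusted p = 0.391 in limma, 0.00669 with the block, 0.00016 to 0.922 over its alternatives; -0.72 in red alone after quantile normalization, -0.11 with scaling between arrays and -0.19 without smoke lung 4).

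In the HSP70 family 1 of 11 genes passed. Hspa4l, an HSP110 relative that exchanges nucleotides on HSP70, had -1.15, -1.03, -0.75, -1.05 and -0.83 with room air and -0.51, -0.36, -0.46, -0.47 and -0.61 with smoke. All 5 smoke lungs lay above all 5 room air lungs, and the rise was 0.48 (1.40-fold; limma, adjusted p = 0.00342; 0.189 with median centring, 0.0729 with red at the 75th percentile and 0.0017 to 0.189 over 22 alternatives). Its relative Hspa4 differed by -0.22 (limma, adjusted p = 0.704; 0.03 with the mean of its probes), and the list median was -0.06. Among 12 exchange factors and regulators of HSP70, Bag5 fell by 0.30 (limma, adjusted p = 0.026; 0.0628, 0.0564 or 0.0548 without room air lung 3, 4 or 5 and 0.0601, 0.0593 or 0.0701 without smoke lung 2, 3 or 5), and 11 of its 22 alternatives passed, with 0.0169 to 0.281. It did not pass with median centring (limma, adjusted p = 0.281) or red alone (0.083 after quantile normalization, 0.0531 with the block added and 0.276 at the 75th percentile). In this list 3 were lower with the block, Bag2 lay highest at 0.12 (-0.04 in red alone after quantile normalization), and the median was -0.02.

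Of 41 measured J-domain proteins 1 rose and 2 fell (2 higher and 1 lower with the block). Dnajc15, a protein of the mitochondrial inner membrane, rose by 0.21 and Dnajc27 fell by 0.19 (limma, adjusted p = 0.0392 and 0.0378), and neither passed with the block (0.0608 and 0.0507; 0.019 to 0.738 and 0.0253 to 0.223 over their 22 alternatives, of which 8 and 4 passed). Without room air lung 2, 3 or 5 or smoke lung 1, 2, 3 or 5, limma gave Dnajc15 an adjusted p = 0.0822, 0.0915, 0.087, 0.0765, 0.0753, 0.0923 or 0.101. Without room air lung 2, 3, 4 or 5 or smoke lung 1, 3, 4 or 5, it gave Dnajc27 an adjusted p = 0.0561, 0.08, 0.0791, 0.087, 0.0899, 0.0588, 0.0862 or 0.0851. Sec63, which serves protein entry into the endoplasmic reticulum, fell by 0.23 (limma, adjusted p = 0.0102). It did not pass with the mean of its probes (-0.09, adjusted p = 0.306 in limma), median centring (0.14) or red alone (0.099 after quantile normalization and 0.345 at the 75th percentile; 0.00637 to 0.345 over 22 alternatives). The largest differences of the list were at genes that did not pass, Dnajb6 (0.29, adjusted p = 0.0719 in limma, 0.0125 with the block, 0.0125 to 0.721 over its alternatives) and Dnajc7 (-0.27, adjusted p = 0.816; 0.05 without smoke lung 2), and the median was -0.03. Dnajb6 was at 0.13 with the mean of its probes and at 0.18 with median centring.

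None of the 3 other HSP90 genes passed. Hsp90ab1, the HSP90 that cells make without stress, differed by -0.41, lower on 5 of 5 slides (limma, adjusted p = 0.112; 0.0308 with the block, 0.0386 without room air lung 1, 0.023 to 0.408 over its alternatives), Trap1 of mitochondria by 0.06 (-0.05 with median centring), and the median was -0.17. The 15 chaperonin and prefoldin genes had no call, with Tcp1 at 0.21 (-0.02 without smoke lung 3 and -0.02 in red alone after quantile normalization), Pfdn4 at -0.20 (limma, adjusted p = 0.18; 0.0416 with the block, 0.0416 to 0.586 over its alternatives) and a median of -0.0075. Pfdn4 was at -0.46 with the scanner ratio and at -0.36 with red at the 75th percentile. The 11 mitochondrial chaperones and proteases had no call either, from Clpp at -0.11 (-0.20 with median centring and -0.06 with red at the 75th percentile) to Grpel1 at 0.10 (0.06 to 0.16 without 1 array, 0.21 in red alone after quantile normalization and 0.02 with median centring), with a median of -0.03.

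In the endoplasmic reticulum 2 of 16 genes passed, in opposite directions (2 higher and 1 lower with the block). Sdf2l1, which is induced when proteins misfold there, rose by 0.39 (limma, adjusted p = 0.0143; 0.418 with median centring, 0.058 with red at the 75th percentile and 0.00105 to 0.418 over 22 alternatives), and Serpinh1, the collagen chaperone HSP47, fell by 0.46 (limma, adjusted p = 0.0444). Serpinh1 did not pass without room air lung 3, 4 or 5 (limma, adjusted p = 0.103, 0.0805 or 0.0872) or without any 1 of smoke lungs 1 to 5 (0.108, 0.0638, 0.0722, 0.0911 or 0.107). Nor did it pass without background correction (0.0578), with median centring (0.199), in red alone (0.111 after quantile normalization and 0.274 at the 75th percentile) or with the scanner ratio (0.103), and 8 of 22 alternatives passed (limma, adjusted p = 0.00882 to 0.274). The list median was -0.05. Hsf4, a heat shock factor known from the lens, fell by 0.29 (limma, adjusted p = 0.0154; 0.062 with red at the 75th percentile, where the difference was -0.59, and 0.00458 to 0.115 over 22 alternatives), and by 0.54 with the scanner ratio. It was the only call in the list of 5 heat shock factors and binding protein genes, where Hsf3 was well above background in red on no array and the median was -0.03. Of 13 further targets of HSF1, Hspa4l rose, Cryab and Serpinh1 fell, 3 were lower with the block, 10 had negative differences and the median was -0.09.

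**Figure D5:**
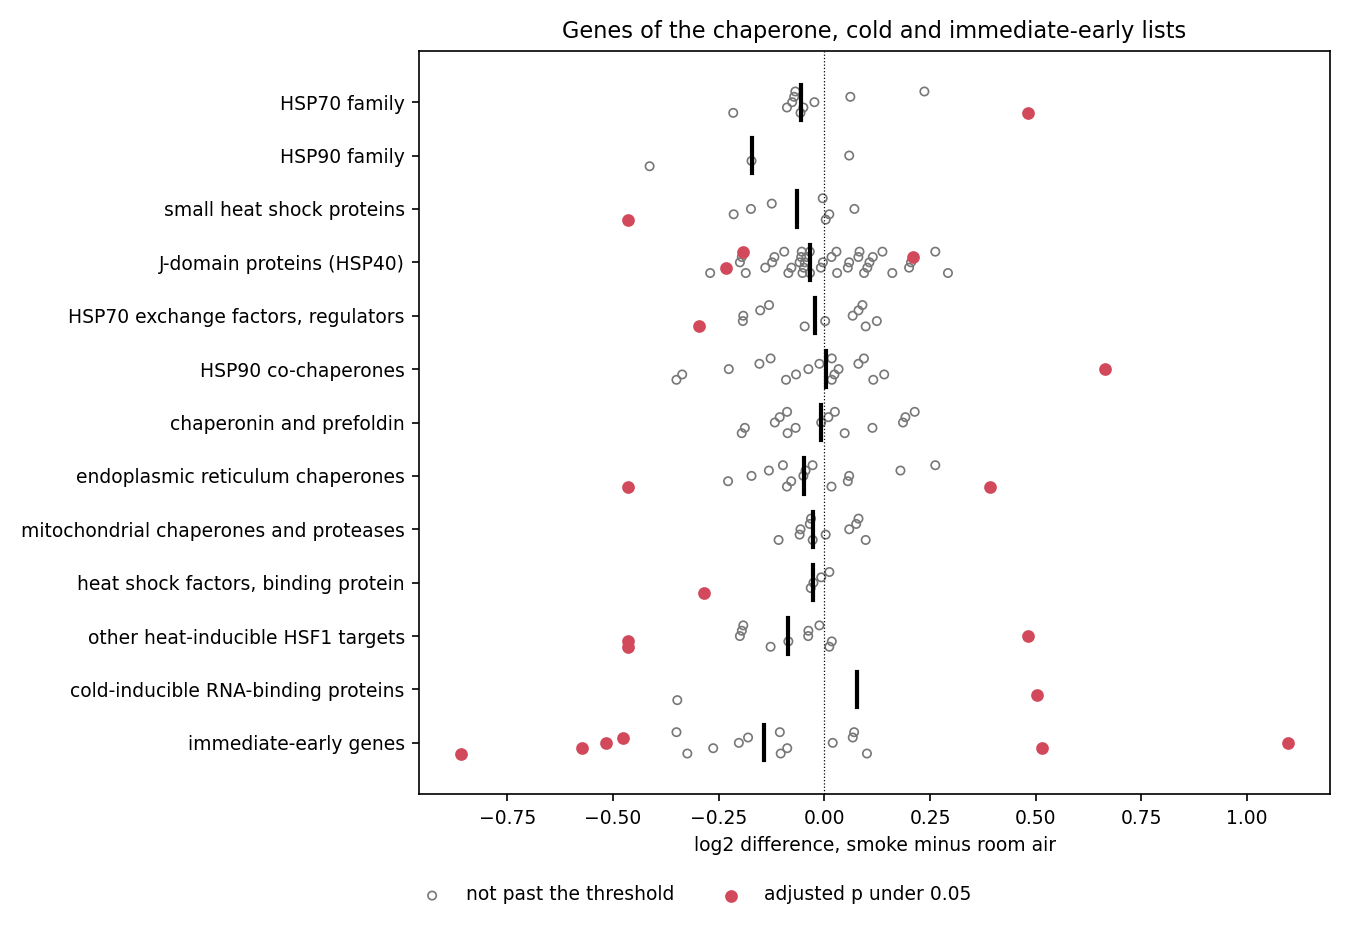
Log2 differences, smoke minus room air, of the measured genes of each list at their brightest probe, with genes past an adjusted p of 0.05 filled in red and a black bar at the list median. Medians of the 11 chaperone and heat shock factor lists lie between -0.17 and 0.0029, and among the 13 lists shown the largest rise and the largest fall are at the immediate-early genes Egr2 (1.10) and Klf4 (-0.86).

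Genes of acute stress were set beside the members. Of 18 immediate-early genes, which cells switch on within minutes of a stimulus or of tissue handling, 2 rose and 4 fell (2 higher and 6 lower with the block), with a median of -0.14, against 4.95% of all genes higher and 3.27% lower (7.52% and 6.27% with the block). Their summed red signal, led by Klf2, was lowest in smoke lung 1 (77372, against 181057 to 266475 in the other 4 smoke lungs) and highest in the 2 lungs of slide 4 (307993 with room air and 266475 with smoke). Egr2 rose by 1.10 (limma, adjusted p = 0.000802), and Atf3 was the other gene that rose. Klf4 fell by 0.86, Dusp1 by 0.57, Jun by 0.52 and Ier2 by 0.48 (limma, adjusted p = 0.000197, 0.0286, 0.002 and 0.0182). With the mean of its probes the difference of Ier2 was -0.23 (limma, adjusted p = 0.00664). Dusp1 did not pass without room air lung 2 or 3 or smoke lung 3, 4 or 5 (limma, adjusted p = 0.0695, 0.071, 0.0647, 0.069 or 0.0701), nor Ier2 without room air lung 3 (0.0503). Dusp1 also did not pass with scaling between arrays (limma, adjusted p = 0.0529), red alone (0.103 after quantile normalization and 0.163 at the 75th percentile) or the scanner ratio (0.0693; 0.00418 to 0.163 over 22 alternatives). For Ier2 the same held with median centring (0.13) and red alone (0.0951 and 0.165; 0.00272 to 0.165 over 22 alternatives). Of the cold-inducible pair, Rbm3 rose by 0.50 (limma, adjusted p = 0.0135, higher on 5 of 5 slides), though the mean of its probes gave 0.08 (0.536) and it did not pass with median centring (0.158), scaling between arrays (0.135) or red at the 75th percentile (0.0565; 0.000969 to 0.536 over 22 alternatives), and Cirbp differed by -0.35 (adjusted p = 0.126), with a median of 0.08.

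Markers of cell types were also read. Of 8 macrophage markers 6 rose (8.23% of all genes were called), Cd68 by 2.06 and Marco by 2.60 among them (limma, adjusted p = 6.92e-09 and 0.00248), with a list median of 1.37. Their summed red signal, led by Chil3, was 38960, 36286, 37295, 33775 and 30734 in room air lungs 1 to 5 and 123593, 126195, 126814, 116307 and 119655 with smoke. Every smoke lung lay above every room air lung, and the part of macrophage RNA in the chaperone values was not tested.

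Among the other markers, Mmp8 and Camp rose of 7 measured neutrophil genes, of which 5 had positive and 2 negative differences (median 0.22). Slc4a1 rose of 3 measured red cell genes (median 0.16). Pecam1 fell of 6 endothelial genes, all 6 of which were lower (median -0.15, 2 called with the block). Over all genes 4.95% were called higher and 3.27% lower. The endothelial sum, led by Cldn5, was 117178 to 147297 with room air and 81662 to 93502 with smoke. None of 9 genes of alveolar and club epithelium (median 0.03), 8 of ciliated cells (median 0.11) or 8 of lymphocytes (median 0.08) passed, and with the block Aqp5 of the epithelium was lower (-0.23, adjusted p = 0.0266 in limma) and Cd3d of lymphocytes higher (0.35, 0.0327). The epithelial sum, led by Sftpc, was 1333930 to 1437850 with room air and 1318820 to 1445890 with smoke.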

How the data were processed

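Total lung RNA of 10 mice was measured on 10 arrays with 2 colours each, and the methods state 5 mice per group, so replicates are separate mice. For every spot and its surroundings, the deposited scanner files give a red and a green intensity, extracted per the file headers by Feature Extraction 9.5.3.1 of Agilent. The deposited scanner files also hold log10 ratios, red to green, which that software formed once background and dye effects were removed. The authors' deposited table holds log2 values which, set against the scanner files, are means of both channels. It was used as an alternative only.

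Per array, 43379 spots of 41174 probes were read. Mean intensities were corrected by normexp against the local background with an offset of 50, control spots were dropped, ratios were normalized by loess within arrays, spots with an outlier flag (83 to 141 per array with room air, 121 to 144 with smoke) were set missing, and replicate spots were averaged per probe. Dim probes were kept. Probes took the symbol of their accession (22951), of the file name where current (6659) or a synonym (3109), and otherwise kept the file name (8455). A gene with several probes is given by the brightest in red.

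The test of smoke against room air was the moderated t test of limma 3.58.1 (lmFit, eBayes; R 4.3.3) across all probes, with Benjamini-Hochberg adjustment over 41173 probes and a threshold of 0.05. After subtraction of group means, arrays of the same replicate number correlated with r from 0.157 to 0.55 (median 0.46), and arrays of different numbers with a median of -0.124 and at most 0.205. The shared numbers come from the labels and mark the slide per the file headers, so a fit with the slide as a block is given where it changes the call of a named gene or a list's count of calls. Marker sums are quantile-normalized red signals on the linear scale, summed over the brightest probes. Alternatives were the Wilcoxon test that the paper names, filters on dim probes in either channel, no background correction, median centring, scaling between arrays, red alone, the scanner ratio, the deposited table, the block, each array left out, the mean of a gene's probes and a fold threshold.

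Genes outside the members are named if they belong to the lists and passed with groups that do not overlap, or are the largest rise or fall of a list, or are markers. Atf3 is named as well, as the other immediate-early gene that rose, and was not followed over the alternatives. Members and lists were chosen with earlier results of these data known. The human arrays were not analysed here.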

Additional observations from a re-analysis of the deposited data

Results flagged for a closer look

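An array was flagged where its value lay far from the other 4 of its group by Dixon's ratio of gap to range (over 0.71), which chance alone does in about 1 of 20 groups. Of 80 groups tested, 9 were flagged. Hspd1 was low in room air lung 2 (-1.745) and in smoke lung 2 (-1.692), which share a slide. Dnajc7 was low in smoke lung 2 (-1.573), and Cryab was high there (2.574). Unc45b was low in room air lung 4 (4.508) and smoke lung 4 (4.047), again a shared slide. Fkbp5 was high in room air lung 1 (-0.867), Tcp1 in smoke lung 3 (-0.7846) and Egr2 in smoke lung 5 (0.149).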

How the results depend on the processing

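Of 888 values of 40 named genes under the alternatives, 723 kept direction and side of the threshold, 112 lost a call, 15 gained one and 38 changed sign; where not stated, the cause was not tested. Using limma, 2906 probes were called (1793 higher, 1113 lower). The Wilcoxon test called 0 probes and 0 chaperone genes (5446 probes at unadjusted p under 0.05), as 5 against 5 arrays allow few distinct p values. Median centring called 1434 probes (687 higher, 747 lower) and 2 chaperone genes, red scaled to the 75th percentile 1759 and 2, and a fold threshold of 1.5 left 790 probes. Scaling between arrays called 1640 probes higher and 765 lower. With the replicate block 5019 probes and 16 chaperone genes were called, and with the block in red alone 5531 and 16. Among these 40 genes the block changed the calls of Dnajb1, Hsp90ab1, Dnajb6, Unc45b, Pfdn4, Dnajc15 and Dnajc27, and no other. Without 1 array, 2102 to 3660 probes and 6 to 13 chaperone genes were called.

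The last 2 alternatives were added after seeing the data. The deposited table, with its exchanged groups, called 16 probes and 0 chaperone genes and turned Hspa1a (0.34), Hspa1a/Hspa1b (0.37), Hsp90aa1 (0.15), Hspb1 (0.34), Dnajb1 (0.24) and Hspe1 (-0.18). The other was the block in red alone. In red alone after quantile normalization, with or without the block, the sign turned for Hspa8 (-0.025), Hspd1 (0.057), Hsf1 (0.0065), Bag2 (-0.039), Hsf3 (-0.0068), Tcp1 (-0.022) and Trap1 (-0.0087). Scaled to the 75th percentile it turned for Hspd1 (0.0799), Hsf1 (0.068), Bag2 (-0.056) and Hsf3 (-0.157). Hspd1 also turned with the scanner ratio (0.012), Trap1 with median centring (-0.051) and Hspa4 with the mean of probes (0.027). Leaving out 1 array moved Hspa8 from -0.023 to 0.145, Hsph1 from -0.022 to 0.149, Hspd1 from -0.134 to 0.060, Dnajc7 from -0.536 to 0.046, Hsf3 from -0.0096 to 0.028, Tcp1 from -0.018 to 0.298 and Trap1 from -0.0023 to 0.089. It moved Hspb1 from -0.577 to -0.416, Dnajb1 from -0.542 to -0.324, Hspa1a from -0.527 to -0.215, Hsp90aa1 from -0.343 to -0.21, Hspe1 from 0.216 to 0.338, Hspa1a/Hspa1b from -0.453 to -0.182, Hsf1 from -0.147 to -0.055, Hspa4 from -0.342 to -0.068 and Unc45b from -0.487 to -0.185. Probes near background, such as the second of Hspb1, say little about their genes.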
